A study of Homo sapiens with 12 samples.

Results

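In total, 10 genes of the AP-1 and immediate early group were followed in SaOS-2 osteosarcoma cells kept for 14 days in osteogenic medium. They were FOS, FOSB, FOSL1, FOSL2, JUN, JUNB, JUND, EGR1, ATF3 and MYC. They were chosen by name, with the probe sets of HG-U133 Plus 2.0 arrays that name 1 of these genes alone, and are 10 of the 19775 genes that such probe sets name. They had 24 probe sets in all, and the brightest on average over the 12 arrays stood for each gene. SaOS-2 is an established human osteosarcoma line, used here untransfected. Sa/CD99 denotes the clones wt22 and wt36, stable transfectants of SaOS-2 made with a CD99 construct by calcium phosphate and selected in neomycin. Each line was sampled at day 0, before the osteogenic medium, and at days 7 and 14 in it. Each of these 6 groups held 2 arrays: replicates 1 and 2 for SaOS-2, and 1 array of each clone for Sa/CD99. The osteogenic medium had less serum than the growth medium and held beta-glycerophosphate and ascorbic acid. It was changed every 4 days, and the time from the last change to harvest was not given in the sources used here. Days in the medium, less serum and time in culture cannot be told apart in this design.

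AP-1 is a dimer of basic leucine zipper proteins. The Fos proteins (FOS, FOSB, FOSL1, FOSL2) bind DNA only as partners of another family, while the Jun proteins (JUN, JUNB, JUND) also pair with each other. Immediate early genes are transcribed within minutes of serum, growth factor or stress signals, without new protein synthesis. ERK, JNK and p38 kinases act on ternary complex factors and serum response factor at CArG boxes, and on CREB and ATF proteins at cAMP response elements. In bone, Fos family proteins are known as regulators of osteoblasts and osteoclasts, and forced Fos expression in mice gives bone tumours.

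The promoter bases of 5 members are shown, since these genes moved over the time course or carry the sites by which the group is known to be induced. They come from the RefSeq promoter table (GRCh38.p14), which had an entry for 8 members and none for FOSL1 and MYC. Each stretch is 150 bases long and reads 5' to 3' on the gene's strand. Capitals mark the letters searched on both strands of the 250 bases before the gene start: the TATA box as TATAAA, the core of a cAMP response element as TGACG, the full element, which contains that core, as TGACGTCA, and the CArG box. For FOS (chr14:75278678-75278827, plus strand), FOSB (chr19:45467846-45467995, plus strand), JUNB (chr19:12791336-12791485, plus strand) and EGR1 (chr5:138465329-138465478, plus strand) the stretch ends at the base before the start, and for JUND (chr19:18281683-18281832, minus strand) it runs from 210 to 61 bases before it.
FOS: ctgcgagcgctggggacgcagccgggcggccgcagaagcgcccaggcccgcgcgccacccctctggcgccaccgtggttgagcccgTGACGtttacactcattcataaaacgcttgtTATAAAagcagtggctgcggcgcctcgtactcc
FOSB: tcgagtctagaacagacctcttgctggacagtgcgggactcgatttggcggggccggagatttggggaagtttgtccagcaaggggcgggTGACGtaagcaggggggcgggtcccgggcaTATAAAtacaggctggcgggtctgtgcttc
JUNB: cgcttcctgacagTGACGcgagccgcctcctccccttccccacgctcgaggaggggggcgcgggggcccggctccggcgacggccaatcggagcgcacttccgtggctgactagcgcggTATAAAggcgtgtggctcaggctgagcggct
EGR1: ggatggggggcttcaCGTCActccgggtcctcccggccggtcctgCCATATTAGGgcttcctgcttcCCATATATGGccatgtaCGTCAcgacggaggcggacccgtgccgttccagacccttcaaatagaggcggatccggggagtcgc
JUND: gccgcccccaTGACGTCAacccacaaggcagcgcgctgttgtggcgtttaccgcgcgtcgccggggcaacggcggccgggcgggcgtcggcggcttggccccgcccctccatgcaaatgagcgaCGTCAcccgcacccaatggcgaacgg

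In FOS, FOSB and JUNB, TATAAA began 33, 30 and 31 bases before the start. It lay in 10.7% of the 35116 promoters of the table within the same 250 bases. TGACG or its complement began 64, 60 and 137 bases before the start in these genes, and 7 members held it, against 21.2% of all promoters. EGR1 held 2 CArG boxes, 105 and 83 bases before the start, and 1.16% of promoters held such a box. JUND held the full element TGACGTCA at 200 bases (1.65% of promoters). The AP-1 site itself, spelt TGACTCA when its middle base is C and TGAGTCA when it is G, was in none of these windows and in 4.2% of promoters. These are matches of letters, not measured binding, and sites more than 250 bases before the start were not searched.

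Values are RMA values on the log2 scale and do not compare 1 probe set with another. Arrays of a parental pair correlated with r = 0.995 to 0.997 across 12894 probe sets, and arrays of a pair of clones with r = 0.958 to 0.965. Separate cultures are not stated for replicates 1 and 2 of SaOS-2, and the p-values then reflect a spread that may be technical only. The transfected gene did not check the labels: 1 CD99 probe set lay below SaOS-2 in the Sa/CD99 arrays at each day (-4.60, -4.17 and -3.23, log2), while the other differed by 0.03, 0.07 and 0.05. The study's methods state that real-time PCR verified CD99 expression in every profiled sample, and that PCR was not analysed here. Between days, the wt22 minus wt36 difference correlated across probe sets with r = 0.58, 0.32 and 0.63, a description. Differences between lines are given for arrays labelled Sa/CD99. Of 10 osteoblast markers, 8 lay above the signal floor of 100 (6.64, log2) on all 12 arrays. RUNX2, SP7, ALPL and COL1A1 were among them, SPP1 was above it on 0 arrays and IBSP on 10. The leukocyte and endothelial markers, PTPRC and PECAM1 included, were above it on 0 arrays (0 of 5 in each list). Of 6 epithelial markers EPCAM was above it on all arrays (7.22 to 8.68) and the other 5 on 0. In Sa/CD99 EPCAM fell by day 14 (-0.62 from day 0 and -0.91 from day 7, both called), and in SaOS-2 it was not called between any of the days. Of 7 muscle markers, 3 were above it on some arrays (MYH3, ACTC1 and MYOD1), and the 2 of these that were tested fell by days 7 and 14 in both lines. The samples are a cultured line and its clones, and the source of these marker signals was not tested.

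Over the time in osteogenic medium, JUNB, JUND and ATF3 rose in both lines, EGR1 rose in SaOS-2 and FOSL1 fell in both. A second probe set of EGR1 also rose in Sa/CD99 by day 7. The ATF3 call in Sa/CD99 held under 11 of 22 alternatives. FOS lay under the signal floor on all arrays at day 0 and above it on 3 of the 4 arrays at day 7. No member was called between the lines. A change was called when its adjusted p (limma, Benjamini-Hochberg over all probe sets tested) was at most 0.05 and its size at least 1.5-fold, and "rose" and "fell" are used of called changes. The filter of the study left 12894 probe sets, among them those of 8 members. FOSL2, JUN, JUNB, JUND, EGR1, ATF3 and MYC were above the floor on 12 arrays and FOSL1 on 11. FOS, above it on 3 arrays, and FOSB, on 0, failed the signal filter and were tested only in a fit without it over 54613 probe sets.

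In SaOS-2, 3 of 8 tested members changed from day 0 to day 7 (EGR1 and ATF3 up, FOSL1 down), when 21.4% of all probe sets were called, 12.8% higher and 8.63% lower. By day 14, 4 of 8 had risen from day 0 (EGR1, ATF3, JUNB, JUND) against 14.9% called, 6.02% higher and 8.86% lower. From day 7 to day 14 none of the 8 was called, against 22.9% (4.75% higher, 18.2% lower). An unadjusted p under 0.05 was found for 7605 of the 12894 probe sets and for 2 of the 8 members, JUNB and JUND. Their limma adjusted p (0.033 and 0.016) also passed, but their changes were under 1.5-fold. In Sa/CD99, 1 of 8 (FOSL1, down) changed by day 7 against 18.2% (10.4% higher, 7.78% lower). By day 14, 4 of 8 had changed from day 0, with JUNB, JUND and ATF3 up and FOSL1 down, against 19.3% (6.38% higher, 13% lower). From day 7 to day 14, JUND alone rose, 1 of 8 against 18.6% (2.98% higher, 15.6% lower). The median change of the 8 members from day 0 to day 14 was 0.59 in SaOS-2 and 0.41 in Sa/CD99, against -0.11 and -0.09 over all probe sets tested.

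**Figure D1:**
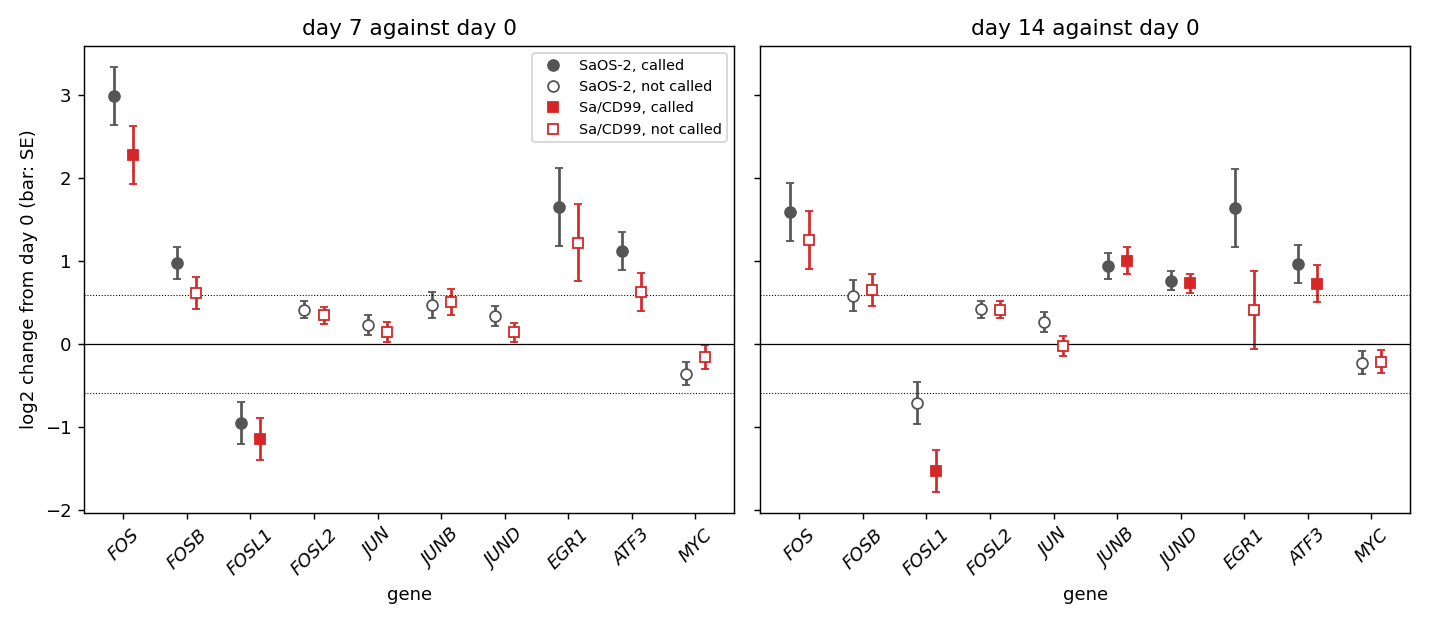
Log2 change of each member from day 0 to day 7 (left) and day 14 (right) in SaOS-2 (grey circles) and Sa/CD99 (red squares), with bars of 1 SE; filled symbols passed the call, dotted lines mark 1.5-fold, and FOS and FOSB come from the fit without a filter. FOS and FOSB are fitted differences of values partly or wholly under the signal floor and give no fold, FOSL1 is the lowest at both days, and MYC lies between 0 and -0.36.

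FOS, the founding Fos protein and the usual sign of a fresh stimulus, read 4.52 and 4.21 in the SaOS-2 arrays at day 0, 7.45 and 7.24 at day 7, and 6.03 and 5.88 at day 14. In clone wt22 it read 4.37, 7.27 and 6.22 at the 3 days, and in clone wt36 4.55, 6.19 and 5.19. Every array at days 7 and 14 was above every array at day 0, and those above the floor were the SaOS-2 arrays and wt22 at day 7. The fit without a filter called FOS higher at day 7 than at day 0 in SaOS-2 (limma adjusted p = 0.00047), when 7.96% of probe sets were called. Against the floor, in place of the dimmer values under it, this was at least 1.63-fold higher, with measured means of 7.35 and 4.36. FOS then fell to day 14 in SaOS-2 (limma adjusted p = 0.0197; 9.25% called), again by at least 1.63-fold against the floor. In Sa/CD99 the day 7 mean was 6.73 with wt36 under the floor, so no fold is given. The fit called its difference from day 0 (limma adjusted p = 0.0021, with 6.99% called). At day 14 the means were under the floor in both lines, so no fold from day 0 is given. The fit called that difference in SaOS-2 (limma adjusted p = 0.021; 4.49% called) and not in Sa/CD99 (limma adjusted p = 0.051; 5.26% called). From day 7 to day 14 the Sa/CD99 difference was not called (limma adjusted p = 0.077; 7.6% called).

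FOSB, a Fos protein with a strong activation domain, stayed under the floor throughout, between 5.05 and 6.33. Its SaOS-2 arrays read 5.41 and 5.05 at day 0, 6.33 and 6.08 at day 7, and 5.87 and 5.75 at day 14. The fit without a filter called it higher in SaOS-2 at day 7 than at day 0 (limma adjusted p = 0.0078), and with both groups under the floor no fold is given. In the clones wt22 and wt36 it went from 5.26 and 5.25 at day 0 to 6.02 and 5.72 at day 7, which was not called (limma adjusted p = 0.067). FOS and FOSB had the closest profiles among pairs within the Fos family (r = 0.93 over 12 arrays, a description).

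FOSL1, known as Fra-1 and as a member that lacks the strong activation domain, went the other way. It read 7.89 and 7.82 in SaOS-2 at day 0, 6.96 and 6.84 at day 7, and 7.11 and 7.18 at day 14. Clone wt22 read 7.98, 6.72 and 6.98, and clone wt36 8.42, 7.40 and 6.37, the last under the floor. In either line, every array at day 7 and at day 14 was below every array at day 0. FOSL1 fell by 0.96 ± 0.25 in SaOS-2 by day 7 (limma adjusted p = 0.016), and its change of -0.71 by day 14 was not called (limma adjusted p = 0.057). The day 14 change was called under 8 of the 22 alternatives, with values of -0.63 to -0.75 over all 22. Among the 8 were the fit of only the arrays compared and that with array weights per line. In Sa/CD99 FOSL1 fell by 1.14 ± 0.25 by day 7 (limma adjusted p = 0.0085) and by 1.52 ± 0.25 by day 14 (limma adjusted p = 0.0028). Leaving out any 1 of the 4 SaOS-2 arrays of days 0 and 7 ended its SaOS-2 call, at changes of -0.90 to -1.01. Leaving out wt36 at day 0 ended the Sa/CD99 call at day 7 (-0.80 to -1.49 over all alternatives).

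FOSL2, known as Fra-2 and as a regulator of bone formation, stayed in a narrow range from 10.57 to 11.13. Its SaOS-2 arrays read 10.65 and 10.70 at day 0, 11.13 and 11.03 at day 7, and 11.08 and 11.10 at day 14. The clones wt22 and wt36 read 10.57 and 10.70, then 10.89 and 11.08, then 11.01 and 11.09. All 8 later arrays were above the 4 arrays of day 0. Its changes from day 0 lay between 0.35 and 0.42 in both lines, with limma adjusted p of 0.011 to 0.026 but under 1.5-fold, so none was called.

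**Figure D2:**
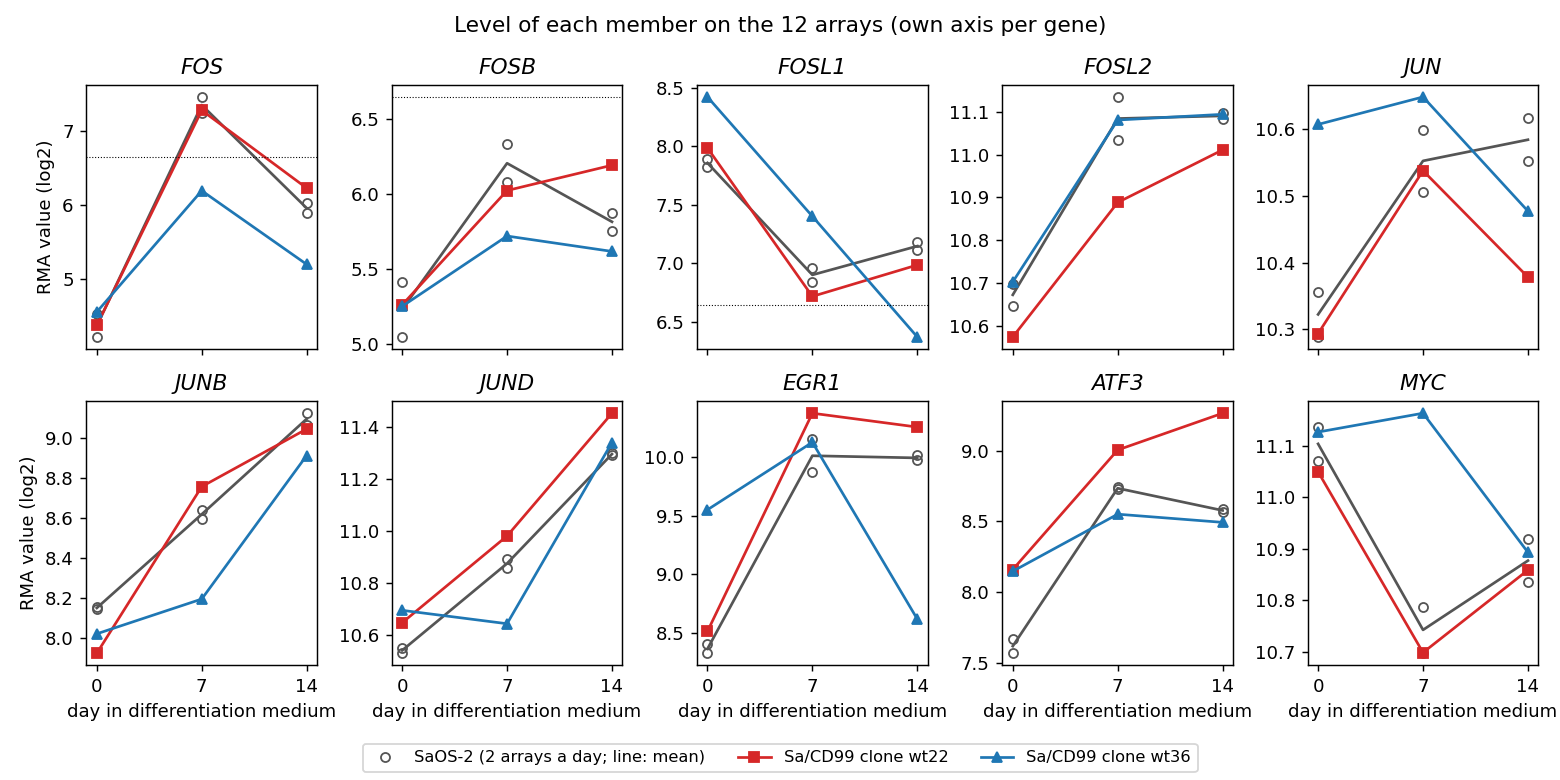
RMA value (log2) of each member against the day in osteogenic medium for the SaOS-2 arrays (open circles, with a line through their mean), clone wt22 (red squares) and clone wt36 (blue triangles); each panel has its own axis and the dotted line is the signal floor. JUNB and JUND climb to their highest values at day 14, FOS peaks at day 7, and EGR1 of wt36 is back at 8.62 at day 14 while wt22 is at 10.26.

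In the Jun family, JUNB and JUND rose by day 14, and no change of JUN was called. JUNB, a Jun protein often set against JUN in growth control, read 8.16 and 8.15 in SaOS-2 at day 0, 8.64 and 8.60 at day 7, and 9.06 and 9.12 at day 14. Clone wt22 read 7.93, 8.76 and 9.04, and clone wt36 8.02, 8.20 and 8.91. The arrays of the 3 days did not overlap within either line. JUNB rose by day 14 by 0.94 ± 0.16 in SaOS-2 (limma adjusted p = 0.0034) and by 1.003 ± 0.16 in Sa/CD99 (limma adjusted p = 0.0023). Both calls held under all 22 alternatives. Its steps by day 7 (0.47 and 0.50) and from day 7 to day 14 (0.48 and 0.50) had limma adjusted p of 0.033 to 0.041 and were under 1.5-fold.

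JUND, the Jun protein most abundant in resting cells, read 10.55 and 10.53 in SaOS-2 at day 0, 10.89 and 10.86 at day 7, and 11.29 and 11.30 at day 14. Clone wt22 read 10.65, 10.98 and 11.45, and clone wt36 10.69, 10.64 and 11.34. The day 14 arrays were above all earlier arrays in each line. By day 14 JUND rose by 0.76 ± 0.12 in SaOS-2 (limma adjusted p = 0.0024) and by 0.73 ± 0.12 in Sa/CD99 (limma adjusted p = 0.0023). From day 7 to day 14 it rose in Sa/CD99 by 0.59 ± 0.12 (limma adjusted p = 0.0054), just past 1.5-fold, and this call was lost without wt36 at day 7 (0.42) or wt22 at day 14. The step in SaOS-2 was 0.42 (limma adjusted p = 0.016, not called). JUNB and JUND followed each other (r = 0.94 over 12 arrays).

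JUN, the partner of FOS in the classical AP-1 dimer, lay between 10.29 and 10.65 on all arrays. Its arrays read 10.29 and 10.36 in SaOS-2 at day 0, 10.51 and 10.60 at day 7, and 10.55 and 10.62 at day 14. In the clones they read 10.29 (wt22) and 10.61 (wt36) at day 0, 10.54 and 10.65 at day 7, and 10.38 and 10.48 at day 14. The change by day 14 was 0.26 (95% interval 0.00 to 0.52) in SaOS-2 and -0.02 (-0.29 to 0.24) in Sa/CD99, neither called. In the clones the arrays of day 7 and of day 14 overlapped those of day 0, and day 14 lay below day 7. The SaOS-2 arrays of days 7 and 14 were above those of day 0. Its probe set is of the kind that can bind transcripts of related genes (suffix x_at).

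EGR1, a zinc finger factor of the immediate early class with serum response sites (the 2 CArG boxes in capitals above), read 8.32 and 8.40 in SaOS-2 at day 0, 10.15 and 9.87 at day 7, and 10.01 and 9.97 at day 14. It rose by 1.65 ± 0.47 (3.14-fold) by day 7 (limma adjusted p = 0.021) and by 1.63 ± 0.47 (3.10-fold) by day 14 (limma adjusted p = 0.028). Its parental arrays of days 7 and 14 were all above those of day 0. Leaving out any 1 of the 4 arrays compared ended the call at either day, with changes of 1.51 to 1.79 by day 7. The clones parted on this gene: wt22 read 8.51, 10.37 and 10.26, and wt36 9.55, 10.13 and 8.62. From its own day 0, wt22 was thus 1.74 higher at day 14 and wt36 0.93 lower. In Sa/CD99 the change was 1.22 by day 7 (limma adjusted p = 0.070) and 0.41 by day 14 (limma adjusted p = 0.51), neither called. The day 7 change was between 0.70 and 1.74 over the alternatives and was called without wt36 at day 0, without either clone at day 14 and with the mean of the probe sets. Without wt36 at day 14 the day 14 change was 1.23 and called, and without wt22 at day 14 it was -0.41.

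ATF3, a stress-induced ATF/CREB protein that represses as a homodimer and pairs with Jun proteins, read 7.67 and 7.57 in SaOS-2 at day 0, 8.73 and 8.74 at day 7, and 8.59 and 8.57 at day 14. Clone wt22 read 8.16, 9.01 and 9.27, and clone wt36 8.15, 8.55 and 8.49. All arrays of days 7 and 14 were above those of day 0 in each line. ATF3 rose in SaOS-2 by 1.12 ± 0.22 (2.17-fold) by day 7 (limma adjusted p = 0.0050), a call that held under all 22 alternatives, and by 0.96 ± 0.22 by day 14 (limma adjusted p = 0.013). The day 14 call ended without any 1 of the 4 arrays compared, and with the mean of the gene's probe sets (0.57). In Sa/CD99 it rose by 0.73 ± 0.22 by day 14 (limma adjusted p = 0.032), a call lost under 11 of the 22 alternatives, with values of 0.34 to 1.11. Among these, 7 left out 1 array: any SaOS-2 array of days 7 and 14, either clone at day 0, or wt22 at day 14. By day 7 the change was 0.63 (limma adjusted p = 0.056), and with the clone number as a replicate block it was called (limma adjusted p = 0.015).

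MYC, the leucine zipper factor that drives growth genes as a dimer with MAX, had a range of 10.70 to 11.16. It read 11.14 and 11.07 in SaOS-2 at day 0, 10.70 and 10.79 at day 7, and 10.92 and 10.84 at day 14. Clone wt22 read 11.05, 10.70 and 10.86, and wt36 11.13, 11.16 and 10.89. No change was called. By day 7 it was -0.36 (95% interval -0.67 to -0.05, limma adjusted p = 0.063) in SaOS-2, where the arrays of the days did not overlap, and -0.16 (-0.47 to 0.16) in Sa/CD99, where they did.

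Between the lines, 0 of the 8 tested members were called at day 0, 7 or 14, when 1.47%, 1.81% and 1.46% of all probe sets were called (limma). At an unadjusted p under 0.05 there was 1 member at day 0 (ATF3) and 0 at days 7 and 14. Of all 12894 probe sets, 1677, 2847 and 2186 were under it at these days. No alternative called any of the 8. FOS and FOSB were also not called in the fit without a filter, which called 0.515%, 0.546% and 0.428% of probe sets. The 8 differences ranged from -0.18 to 0.67 at day 0, -0.14 to 0.24 at day 7, and -0.56 to 0.30 at day 14. ATF3 at day 0 read 8.16 and 8.15 in the arrays labelled Sa/CD99 against 7.67 and 7.57, a difference of 0.54 (95% interval 0.03 to 1.04, limma adjusted p = 0.34). For 5 members the intervals of the probe set standing for the gene stayed inside 1.5-fold either way at all 3 days: FOSL2, JUN, JUNB, JUND and MYC. For FOSL1, EGR1 and ATF3 they did not, and EGR1 had the widest, -0.39 to 1.73 at day 0 and -1.61 to 0.50 at day 14. Some other JUND probe sets also went past 1.5-fold, with intervals of -0.84 to 0.15 and -0.82 to 0.21 at day 7. All intervals use 1 estimate of spread for both lines, although the clones spread more than the parental replicates. A missed call does not show equal levels.

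**Figure D3:**
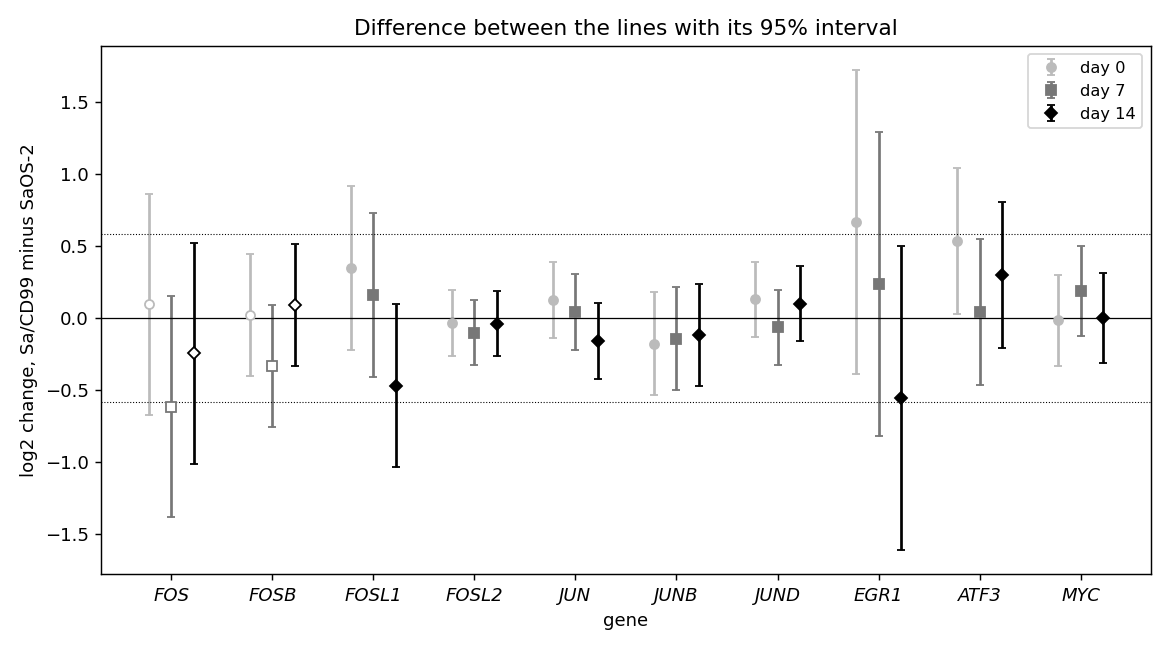
Log2 difference of the arrays labelled Sa/CD99 minus SaOS-2 for each member at days 0, 7 and 14, with 95% intervals; open symbols (FOS, FOSB) come from the fit without a filter and dotted lines mark 1.5-fold. No difference was called; the intervals of FOSL2 are the shortest and those of EGR1 the longest.

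Whether the time course itself differed between the lines was tested by the interaction of line and day. None of the 8 members was called for day 7 or day 14, and 0% and 0.0155% of all probe sets were (limma). At an unadjusted p under 0.05 there were 0 members for day 7 and 1 for day 14, FOSL1. Of all 12894 probe sets, 544 and 467 were under it. The fall of FOSL1 was larger by 0.81 in Sa/CD99 (interaction -0.81, 95% interval -1.62 to -0.01, adjusted p = 0.999 in limma). For EGR1 the interaction at day 14 was -1.23 (95% interval -2.72 to 0.27). A change called in 1 line only, such as EGR1 in SaOS-2, is thus not shown to differ between the lines.

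The members spread more between the clones than between parental replicates. The widest gap in a pair was 0.37, 0.28 and 0.15 in SaOS-2 at days 0, 7 and 14 (FOSB, EGR1 and FOS), and 1.04, 1.09 and 1.64 in Sa/CD99 (EGR1, FOS and EGR1). The median gap over the members was 0.07, 0.10 and 0.06 against 0.11, 0.40 and 0.35. At day 7, wt36 was below wt22 for FOS, FOSB, JUNB, JUND, EGR1 and ATF3, and above it for FOSL1, FOSL2, JUN and MYC. Across all probe sets tested the SD of the difference in a pair was 0.12 to 0.14 in SaOS-2 and 0.39 to 0.42 in Sa/CD99, while 1 estimate of spread served both lines in the tests. With only the 4 arrays compared in the fit, JUNB alone of the 4 calls in Sa/CD99 at day 14 remained. With each clone against itself, ATF3 was 0.85 (wt22) and 0.40 (wt36) above its day 0 at day 7, and FOSL1 stood at -1.27 and -1.02.

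Other probe sets of a gene mostly moved in the direction of the first, with exceptions. EGR1 had a second probe set that was called in both lines by day 7 (1.90 in SaOS-2 and 1.66 in Sa/CD99; limma adjusted p = 0.0046 and 0.0093), and that fell in Sa/CD99 from day 7 to day 14 (-1.07, limma adjusted p = 0.046). For JUND, 2 other probe sets, both with the suffix x_at, rose in Sa/CD99 from day 7 to day 14 by 0.98 and 0.90. By day 7 they stood there at -0.36 and -0.17 from day 0, where the first stood at 0.14, none of them called. By day 14 they stood at 0.55 and 0.52 from day 0 in SaOS-2, neither called. In Sa/CD99 they stood at 0.62 (not called) and 0.73 (called). For FOSL2 another probe set rose in Sa/CD99 by day 7 (0.67 ± 0.09, limma adjusted p = 0.00086) while the first stayed at 0.35. A second probe set of ATF3 rose by 0.83 in SaOS-2 by day 7 and by 0.76 in Sa/CD99 by day 14. It was not called in SaOS-2 by day 14 (0.57, limma adjusted p = 0.10) or in Sa/CD99 by day 7 (0.45, limma adjusted p = 0.19). With the mean of a gene's probe sets in place of the first, JUND was no longer called by day 14 in either line, at 0.50 and 0.57. The same held for ATF3 by day 14, at 0.57 in SaOS-2 and 0.52 in Sa/CD99 (limma adjusted p = 0.045 and 0.055). EGR1 was then called in Sa/CD99 by day 7 (1.32, limma adjusted p = 0.015).

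**Figure D4:**
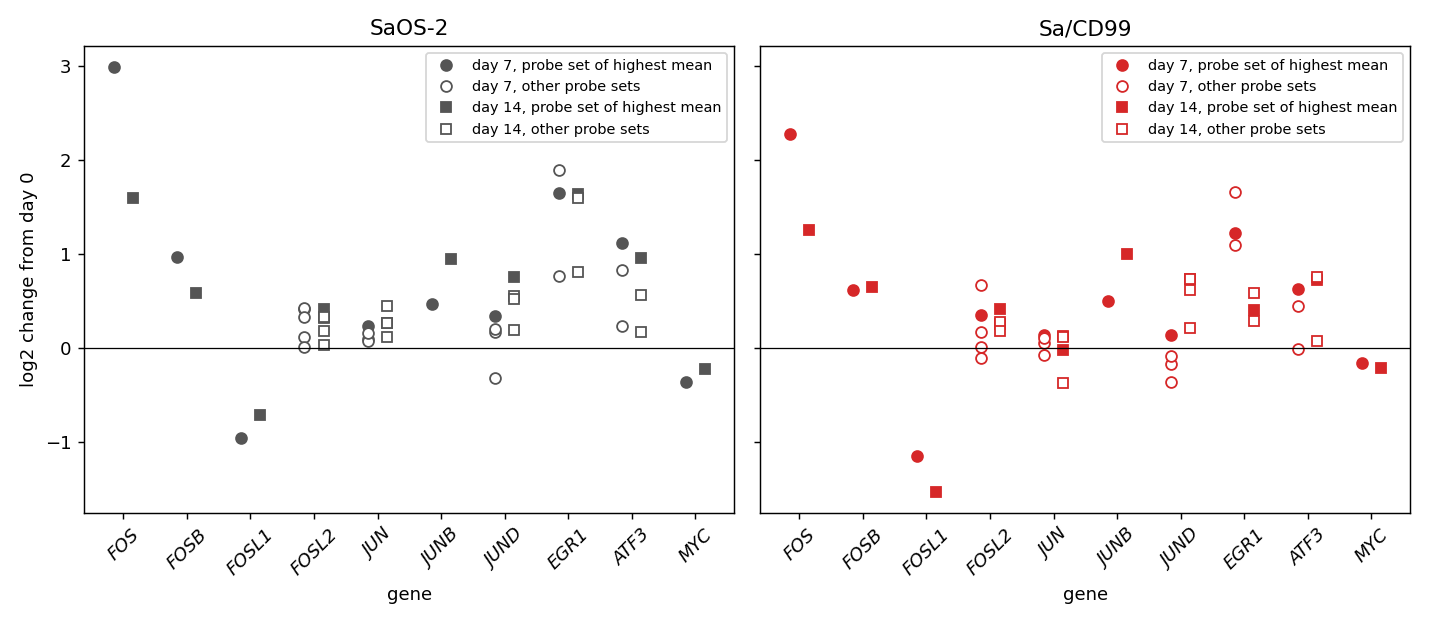
Log2 change from day 0 of every probe set of each member in SaOS-2 (left) and Sa/CD99 (right), at day 7 (circles) and day 14 (squares), from the fit without a filter; filled symbols are the probe set of highest mean and open ones the others. The probe sets of EGR1 and ATF3 lie on or above 0 in SaOS-2, and those of JUND lie on both sides of 0 at day 7.

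Genes of the same pathways were read from lists of known partners, other early genes, upstream kinases and targets. Of the partners and other bZIP genes, 17 were tested, with 5 up and 1 down by day 7 and 4 up and 1 down by day 14 in SaOS-2, and 3 and 2 up with 0 down in Sa/CD99. That is 35.3% and 29.4% called in SaOS-2 beside 21.4% and 14.9% of all probe sets, and 17.6% and 11.8% in Sa/CD99 beside 18.2% and 19.3%. CEBPB, a leucine zipper factor of differentiation, rose in all 4 of these comparisons (0.80 to 0.98). BACH2, a repressor that pairs with small Maf proteins, also rose in all 4 (0.62 to 0.93). CREB1, which binds cAMP response elements, rose by day 7 (0.91 in SaOS-2 and 0.75 in Sa/CD99) and fell from day 7 to day 14 (-1.14 and -1.12). MAFF, a small Maf protein, rose by 1.61 by day 14 in SaOS-2. The median change by day 14 over the 17 genes was -0.14 in SaOS-2 and -0.12 in Sa/CD99, beside -0.11 and -0.09 over all probe sets tested.

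Among 19 other immediate early genes tested, 8 changed by day 7 (4 up, 4 down) and 8 by day 14 (all up) in SaOS-2. In Sa/CD99 there were 7 (4 up, 3 down) and 10 (6 up, 4 down). The shares were 42.1% and 42.1% beside 21.4% and 14.9% of all probe sets in SaOS-2, and 36.8% and 52.6% beside 18.2% and 19.3% in Sa/CD99. Their median change by day 14 was 0.29 in SaOS-2 and 0.27 in Sa/CD99, beside -0.11 and -0.09 over all probe sets tested. TRIB1, a pseudokinase, rose in each of these (0.94 to 1.56), and KLF4, a zinc finger factor, rose by day 14 (1.28 in SaOS-2 and 1.57 in Sa/CD99). PLK2, a kinase of the early class, fell by day 7 in both lines (-1.26 and -1.73), and by day 14 in Sa/CD99 (-2.14). CCN2, a matrix-associated growth factor, fell in Sa/CD99 (-1.07 by day 7 and -1.58 by day 14). Between the lines, 1 gene of the 5 lists was called at day 7, IER5 (1.005 ± 0.19 higher in the arrays labelled Sa/CD99, limma adjusted p = 0.033). At day 14 there was 1, LIF, a cytokine, at -1.79 ± 0.27 (limma adjusted p = 0.014), beside 1.81% and 1.46% of all probe sets at these days. At day 0 there was none. An unadjusted p under 0.05 was then found for 8 of the 85 genes of these lists, beside 1677 of the 12894 probe sets.

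Of 18 genes upstream of AP-1, 5 changed by day 7 (1 up, 4 down) and 3 by day 14 (1 up, 2 down) in SaOS-2, and 3 (1 up, 2 down) and 4 (2 up, 2 down) in Sa/CD99. In the same order these are 27.8%, 16.7%, 16.7% and 22.2%, beside the 21.4%, 14.9%, 18.2% and 19.3% of all probe sets. MAP2K1, the kinase that activates ERK, fell in all 4 (-0.72 to -0.83). The median of these 18 by day 14 was -0.16 in SaOS-2 and -0.21 in Sa/CD99. ELK4, a ternary complex factor, fell from day 7 to day 14 (-0.67 and -0.74). Of 13 targets and corepressors, 7 changed by day 7 (3 up, 4 down) and 4 by day 14 (2 up, 2 down) in SaOS-2, and 6 (2 up, 4 down) and 7 (3 up, 4 down) in Sa/CD99. In the same order these are 53.8%, 30.8%, 46.2% and 53.8%, beside the same shares of all probe sets. Their medians by day 14 were 0.11 and -0.25. PLAU, the urokinase, rose by 1.64 and 2.26 in SaOS-2 and by 1.78 and 1.83 in Sa/CD99 at days 7 and 14. PLAUR, its receptor, fell at the same times (-2.30 and -2.03, then -1.83 and -1.46). NAB1, a corepressor of EGR1, rose by 0.86 in SaOS-2 by day 7 and fell from day 7 to day 14 in both lines (-1.02 and -0.81). Of 18 MYC partners and targets, 5 changed by day 7 (1 up, 4 down) and 3 by day 14 (all down) in SaOS-2, and 4 (1 up, 3 down) and 2 (both down) in Sa/CD99. In the same order these are 27.8%, 16.7%, 22.2% and 11.1%, beside 21.4%, 14.9%, 18.2% and 19.3% of all probe sets. Their medians by day 14 were -0.16 and -0.13. ODC1, the first enzyme of polyamine synthesis, fell in all 4 (-0.66 to -1.29), and LDHA, lactate dehydrogenase, likewise (-0.60 to -0.74).

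The genes whose profiles were most like each member were taken from 6636 genes by Pearson r over the 12 arrays, as a description. FOSL1 ran closest to PLK2 (0.98) and CCN1 (0.96), both early genes, with LOC730101 between them. JUNB ran with ATP6V0C, ATP6V0D1 (0.97 each), subunits of the proton pump of lysosomes, and LRP3. JUND ran with EPHX1, SMPD3 and CLCN7 (0.98, 0.98 and 0.97). FOSL2 had ZCCHC24, VCL and RNF175 (0.98 each). ATF3 had SRPX2, CPQ and IL1R1 (0.95, 0.94 and 0.94), and MYC had NCAPH, ODC1 and DKK3 (0.93, 0.92 and 0.92). EGR1 had CD83, RFTN1 and SMCR8 (0.92, 0.91 and 0.90). JUN had the lowest values, with RMI2, FAM111A-DT and CAMK2N1 (0.85, 0.85 and 0.84). The 12 points share the 6 groups of line and day.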

How the data were processed

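Affymetrix HG-U133 Plus 2.0 arrays measured total RNA of 12 samples. The values, deposited by the authors, are log2 signals of probe sets from affy and RMA, which corrects background, quantile-normalizes the arrays and summarises probes. Versions of affy and RMA and a genome build were not given in the sources used here. Of 54613 probe sets other than 62 controls, the filter removed any with signal not above 100 on 9 or more of the 12 arrays, or an interquartile range not above the median, which left 12894. A restriction to annotated probe sets, as in the methods, was run as an alternative (probe sets with 1 gene). Names came from the platform annotation: 41097 probe sets name 1 gene (41043 matched by gene ID to GRCh38.p14), 1801 several and 11777 none.

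Group means were fitted to all 12 arrays with limma 3.58.1 in R 4.3.3 (6 residual and 3.18 prior degrees of freedom) for 11 comparisons: lines at 3 days, 3 pairs of days in each line, and 2 interactions. A probe set was called at an adjusted p of at most 0.05 (Benjamini-Hochberg) and 1.5-fold. Errors are SEs, and intervals are 95%. The code was tested on simulated data. Figures were drawn with matplotlib 3.10.9. The number of arrays limits precision.

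The clone number marks the same line on each day and pairs the Sa/CD99 arrays (the wt22 minus wt36 difference on 1 day against another: r = 0.58, 0.32 and 0.63). The parental replicate number does not (r = -0.04, 0.24 and -0.05).

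The members and lists were chosen with earlier results of these data known. The text names all 10 members, CD99, at most 4 called genes per list and comparison (those of the largest change), the 3 genes nearest to each tested member, and 8 markers, and from the remaining marker genes those above the floor on some arrays. Alternatives changed the filter, the arrays fitted, the variance model, the scaling, the probe set choice, the replicate block and the threshold, or left out 1 array.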

Additional observations from a re-analysis of the deposited data

How the results depend on the processing

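Each of 88 member changes was recomputed under 22 alternatives, except that JUN was not tested with the mean of a gene's probe sets. Of the 13 called, none changed sign, and 3 kept the call under every alternative (JUNB by day 14 in both lines and ATF3 by day 7 in SaOS-2). A further 20 changes, 5 of them of FOS and FOSB without a filter, were called only under some alternative, and 34 of the 60 never called changed sign somewhere. Counts of called members were 0 under every setting between lines and for the interactions.

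Without a filter, which admits FOS and FOSB, the counts were 5 for SaOS-2 by day 7 and 1 from day 7 to day 14. For Sa/CD99 by day 7 the count was 2. Of all probe sets, 7.96%, 9.25% and 6.99% were called in these comparisons. By day 14, FOS was added in SaOS-2 (4.49% called) and ATF3 was lost in Sa/CD99 (5.26% called). With only the arrays of the groups compared, which leaves fewer samples for the spread, FOSL1 was added in SaOS-2 by day 14. Sa/CD99 then had 0 by day 7, 1 by day 14 (JUNB) and 0 from day 7 to day 14. With array weights per line (2.61 for SaOS-2 and 0.384 for Sa/CD99), FOSL1 was added in SaOS-2 by day 14. ATF3 was then lost in Sa/CD99 by day 14. With arrays centred on the median, day 14 against day 7 gave 1 in SaOS-2 and 2 in Sa/CD99. With the mean of a gene's probe sets, 7 members were tested, and the counts were 2 for SaOS-2 by day 14, 2 for Sa/CD99 by day 7 and 2 by day 14. With the replicate block, which pairs the clones, Sa/CD99 had 2 by day 7 (FOSL1 and ATF3), and the block changed no other count. With the adjusted p alone the counts for SaOS-2 were 6 by day 7, 5 by day 14 and 2 from day 7 to day 14. For Sa/CD99 they were 3, 5 and 2. Where no construction is named, the cause was not tested.

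Leaving out 1 array in turn gave counts of 1 to 3 for SaOS-2 by day 7, 2 to 5 by day 14 and 0 to 0 from day 7 to day 14. It gave 1 to 3 for Sa/CD99 by day 7, 3 to 5 by day 14 and 0 to 2 from day 7 to day 14. The number of calls over all probe sets varied between these fits as well. In each, the 1 remaining array of a group was assumed to vary like the other groups. The SaOS-2 count by day 7 was 1 without any 1 of its 4 arrays, and that by day 14 was 2. For Sa/CD99 by day 7 it was 3 without wt36 at day 7 or without either clone at day 14, and from day 7 to day 14 it was 2 without wt22 and 0 without wt36 at day 7. Values under the signal floor (FOS, FOSB) are limited by background.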
